A study of Mus musculus with 6 samples.

Results

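ATP-binding cassette (ABC) transporters were described in whole adrenal glands of clock-deficient mice. The members were all probe sets whose platform annotation named exactly 1 gene with a symbol from Abca to Abcg followed by a number and at most 1 letter. This rule found 92 probe sets of 45 genes among 44935 probe sets in all. The glands came from male mice 3 months old, on a background of C57BL6 and 129Sv, that carried the Per2Brdm1 allele and were Cry1-/-. All 6 samples shared this genotype, a light-dark schedule before release into constant darkness, and the tissue. They differed in the hour after lights off at which the gland was taken, with 3 arrays at 46 h and 3 at 54 h. No gland with a working clock was analysed here, so the only comparison is between these hours, and anything else that differed between the collections cannot be told apart from time. The labels do not say which animal gave each array, so the spread between arrays may be technical in part.

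ABC proteins use ATP binding and hydrolysis in paired nucleotide-binding domains, in most subfamilies to move lipids, drugs, peptides, ions or metabolites across a membrane. Subfamilies E and F lack membrane domains and act on ribosomes instead. In the adrenal cortex the family matters for handling of cholesterol and steroids. Abcb1b encodes one of the pair of mouse P-glycoproteins, drug exporters that also carry corticosteroids, and its RNA is known to be abundant in the mouse adrenal. Abcb1a, its close relative, is best known from the endothelium of the blood-brain barrier. In the RefSeq gene order Abcb1a, Abcb1b and Abcb4 are neighbours on chromosome 5.

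The start-site windows of the P-glycoprotein pair are shown because these adjacent, related genes are set side by side below. Any link between the windows and the readings was not tested. Each window runs from 250 bases before the RefSeq start to 50 bases after it (GRCm38.p6, plus strand), with motif matches in capitals. The Abcb1a window lies at chr5:8566841-8567140 and the Abcb1b window at chr5:8797897-8798196.
Abcb1a: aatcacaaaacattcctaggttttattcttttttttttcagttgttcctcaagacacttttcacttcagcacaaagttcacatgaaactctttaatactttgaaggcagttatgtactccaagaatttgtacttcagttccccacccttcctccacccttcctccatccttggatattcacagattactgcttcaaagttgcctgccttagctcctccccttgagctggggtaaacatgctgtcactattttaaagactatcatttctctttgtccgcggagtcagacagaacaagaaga
Abcb1b: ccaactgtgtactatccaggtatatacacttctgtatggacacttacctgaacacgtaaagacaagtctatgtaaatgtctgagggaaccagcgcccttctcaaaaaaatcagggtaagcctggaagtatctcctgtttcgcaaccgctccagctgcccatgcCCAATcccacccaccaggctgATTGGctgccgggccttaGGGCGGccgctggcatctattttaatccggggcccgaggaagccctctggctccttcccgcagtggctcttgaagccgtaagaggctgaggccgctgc
The capitals in Abcb1b mark a CCAAT box 87 bases before the start, its reverse complement ATTGG at 66 bases before, and a GC box (GGGCGG) at 48 bases before. The Abcb1a window held no match to any motif searched, on either strand: the E-box CACGTG, the D-box forms TTATGTAA and TTACGTAA, the cAMP element TGACGTCA, the SF-1 site CAAGGTCA, the CCAAT box, the GC box and the TATA box (TATAAA). The G and C content was 55.0% in Abcb1b and 40.3% in Abcb1a, and the longest run the windows shared was 9 bases. RefSeq windows matched 35 of the 45 member genes, with 42 windows. CCAAT was found in 15 of these 42 (35.7%) and in 37.4% of all 32851 windows. The GC box was found in 21 (50%) against 35.7% of all, and the E-box in 5 (11.9%) against 7.15%. Those 5 E-box windows belonged to Abca1, Abca8a, Abca8b, Abcc4 and Abcf1, and no member window held a D-box form, against 1.06% of all windows. A letter match is a description and not a binding site.

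Median intensity per array ran from 204 to 217 units, and no value exceeded 17879 units. All 6 cortex genes and all 5 medulla genes were measured and none stood at 0 on any array. The same held for the measured markers of every other tissue, such as kidney and muscle, so this is no check of the tissue label. A probe set was tested if its average of log2(intensity + 16), taken across all arrays, exceeded the 40th percentile, which corresponds to 139 units, and a gene with such a probe set is called expressed here. By this rule 72 of the 92 member probe sets, from 38 of the 45 genes, were expressed. The 20 probe sets below it read between 1.85 and 148 units on single arrays. Of those just below, Abca14 averaged 129 units at 46 h and 133 at 54 h. Of those just above, the dimmer Abcd4 probe set averaged 149 and 152 units. A stricter bound came from the 95th percentile of 44 olfactory receptor probe sets, 469 units, which left 25 genes. Intensity depends on the probes, so no gene is ranked against another by it.

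The 7 genes with no probe set above the filter were Abca6, Abca13, Abca14, Abca16, Abcb11, Abcc6 and Abcc10. Abcb11, the bile salt export pump of hepatocytes, averaged 98.3 units at 46 h and 116 units at 54 h. Abcc6, known from liver and from mineralisation disorders, read 12.1, 2.92 and 50.4 units at 46 h and 1.85, 32.3 and 13.9 units at 54 h. By subfamily, 10 of 14 ABCA genes were expressed, 7 of 8 ABCB, 8 of 10 ABCC and all of the 3 ABCD, 1 ABCE, 3 ABCF and 6 ABCG genes. Above the stricter olfactory receptor bound lay 7 ABCA, 6 ABCB, 4 ABCC, 1 ABCD, 1 ABCE, 3 ABCF and 3 ABCG genes.

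Abcb1b, the P-glycoprotein gene known for its level in adrenal, was lower on every 54 h array in both of its probe sets. Its brighter probe set, 1418872_at, read 11726, 11432 and 11402 units at 46 h (arrays 1, B and C in this order throughout), and 9889, 7993 and 8856 units at 54 h. Every 54 h array lay below every 46 h array, and 54h replicate 1 lay nearest to the 46 h arrays. The mean was 11520 ± 179 units at 46 h and 8913 ± 950 units at 54 h (SD, n = 3 each). On the log2(intensity + 16) scale the 54 h mean was 1.30-fold lower, a change of -0.37 ± 0.07 SE. The second probe set, 1446701_at, read 356, 323 and 363 units at 46 h and 205, 199 and 205 units at 54 h. Here too the groups did not overlap, and the 54 h arrays lay close together. Its mean was 347 ± 21.5 units at 46 h and 203 ± 3.54 units at 54 h (SD, n = 3 each), under the olfactory receptor bound of 469 units. This was 1.66-fold lower at 54 h, or -0.73 ± 0.11 SE on the same scale.

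Neither Abcb1b probe set passed the test over all 26961 probe sets. In limma with Benjamini-Hochberg adjustment, 1446701_at had adjusted p = 0.0539 and 1418872_at had adjusted p = 0.0922. By p they had rank 37 and rank 76 among all probe sets. Without 54h replicate 1 the brighter probe set passed (log2 change -0.45, limma adjusted p = 0.00779), as it did without 54h replicate B (-0.30, adjusted p = 0.0493). It did not pass when any of the other 4 arrays was left out, with limma adjusted p from 0.155 to 0.365. Over 16 alternatives it passed in 4, with limma adjusted p from 0.00219 (array weights) to 0.388. The dimmer one passed with arrays centred on their medians (limma adjusted p = 0.0473) and with a robust fit (adjusted p = 0.0382). Over 15 alternatives it passed in 3, with limma adjusted p from 0.00199 (array weights) to 0.279, and it passed in none that left out an array. Array weights called 3466 probe sets over the whole table, against 31 in the main fit. The mean of both probe sets had a log2 change of -0.55 and passed in a limma fit over genes (adjusted p = 0.0401).

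**Figure D1:**
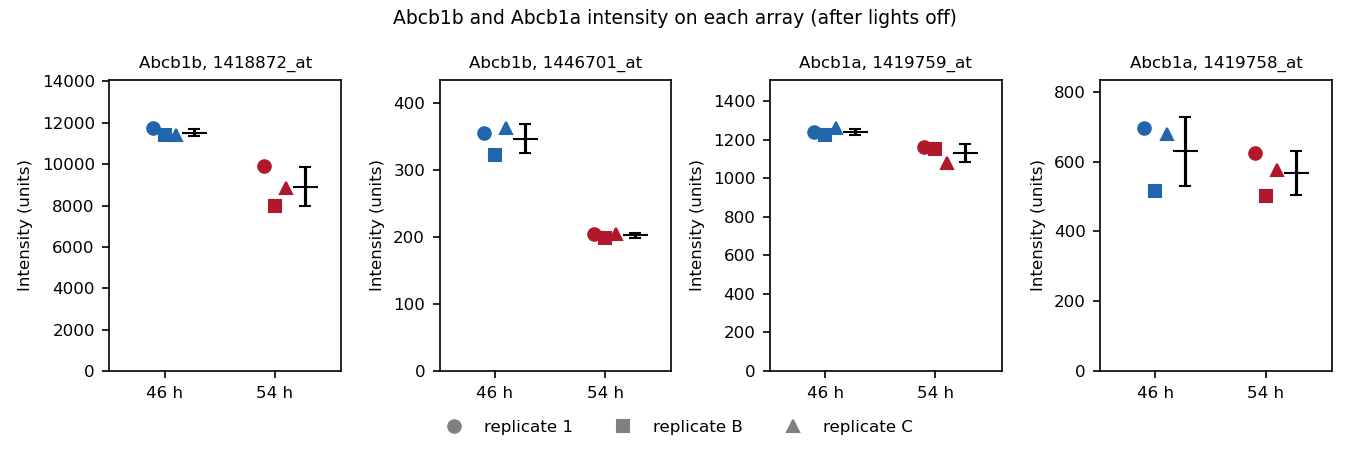
Intensity in units (vertical axes, linear from 0) of the Abcb1b and Abcb1a probe sets on each array at 46 h (blue) and 54 h (red); symbols mark replicates 1, B and C, and black bars the mean ± SD of 3 arrays. The groups do not overlap for either Abcb1b probe set, whereas for Abcb1a they separate in 1419759_at and overlap in 1419758_at.

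Abcb1a gave a smaller difference. Probe set 1419759_at read 1236, 1223 and 1257 units on the 46 h arrays and 1159, 1153 and 1076 units on the 54 h arrays. The groups did not overlap, but the log2 change was -0.13 ± 0.08 SE (limma adjusted p = 0.616). Probe set 1419758_at read 695, 515 and 678 units at 46 h and 625, 501 and 575 units at 54 h, with overlapping groups and a log2 change of -0.14 ± 0.14 SE. Taken within each array, Abcb1b minus Abcb1a on the log2 scale was lower at 54 h in all 4 pairings of their probe sets, by 0.24 and 0.23 with 1418872_at and by 0.60 and 0.59 with 1446701_at. The 54 h values lay below all 46 h values in each pairing. The exact permutation test, two-sided, gave p = 0.1 in each of the 4, and 0.1 after Benjamini-Hochberg adjustment, which is the smallest that 3 against 3 arrays allow. Abcb4, which exports phosphatidylcholine into bile and is next to Abcb1b on the chromosome, averaged 599.8 units at 46 h and 549 at 54 h, a log2 change of -0.13 ± 0.12 SE with overlapping arrays.

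Marker levels beside Abcb1b were as follows, and their part in its difference was not tested. Of all tested probe sets 5.75% were lower and 4.34% higher at an unadjusted limma p under 0.05. Of the 6 cortex markers 0 passed limma and none reached an unadjusted p of 0.05, though all 6 were below 0 (median log2 change -0.05). Their summed level was 88221 to 92393 units at 46 h and 84614 to 90636 at 54 h, so the groups overlapped. Star and Hsd3b1 averaged 17478 and 17206 units at 46 h, near the highest value of any probe set, 17879 units. Values so high may understate a change, which was not tested. The 5 medulla markers summed to 52619 to 55989 and 49883 to 54886 units, with 0 past limma and 1 lower at an unadjusted p of 0.05 (Chga). The 8 endothelial markers, relevant to Abcb1a, summed to 15813 to 17876 units at 46 h and 14950 to 15824 at 54 h, with 0 past limma and 2 lower at an unadjusted p of 0.05. Markers of other tissues were read as well. Adipose markers summed to 26004 to 32257 and 27543 to 34857 units, with 0 of 6 past limma. At an unadjusted p of 0.05, 3 of these 6 were higher: Cidea with a log2 change of 0.67, Lep with 0.59 and Ucp1 with 0.56. The others had -0.11 (Adipoq), -0.06 (Fabp4) and 0.10 (Retn). Of 3 red cell markers 1 passed limma, higher, and 2 were higher at an unadjusted p of 0.05, whereas Hba-a1 had a log2 change of -0.30. Of 3 tested muscle markers 0 passed limma and 2 were higher at an unadjusted p of 0.05, among them Eno3 with 0.50. The 1 tested kidney marker reached neither threshold. Liver markers summed to 12001 to 15629 units at 46 h and 17098 to 18019 at 54 h, with 1 of 9 tested past limma, higher (Serpina1b, 1.10). At an unadjusted p of 0.05, 7 of the 9 were higher, and the median log2 change was 0.77. Alb had 0.98, Ttr 1.11 and Apoa1 1.38, whereas Cyp2e1, which makes up the largest part of the sum, had -0.28. In whole glands fewer cells of a type and less RNA per cell cannot be told apart.

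Over the whole family the shares of members past each threshold were near or below those of all probe sets. With limma and Benjamini-Hochberg adjustment 0 of the 72 tested members were called, against 31 of 26961, or 0.115%, of all and 0.0556% counting only lower ones. An unadjusted limma p under 0.05 was reached by 4 members (5.56%), all lower at 54 h. Among all probe sets 10.1% reached it, 5.75% lower and 4.34% higher. The groups did not overlap in 7 members (9.72%), all lower: both probe sets of Abcb1b and 1 each of Abca1, Abcb1a, Abcb10, Abcd4 and Abcf2. Among all probe sets 15.5% did not overlap, 9.05% lower and 6.48% higher. The median log2 change was -0.04 for the members and -0.02 for all tested probe sets, and 44 of the 72 were below 0 (61.1% against 55.6% of all). The median member on the 54 h arrays lay at -0.05, -0.03 and -0.03 relative to its 46 h mean. The 95% confidence interval lay within a 1.5-fold change in either direction for 62 of the 72 probe sets and within a 2-fold change for 70.

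**Figure D2:**
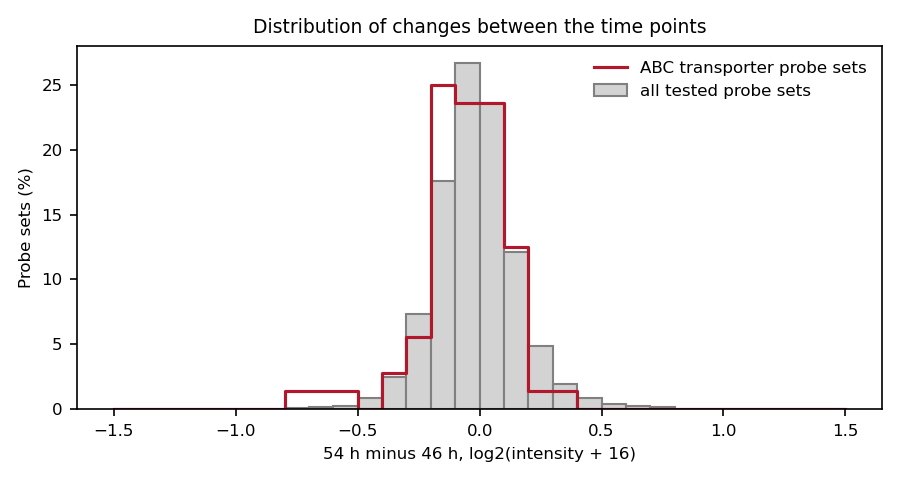
Percentage of probe sets (vertical axis) by change from 46 h to 54 h on the log2(intensity + 16) scale (horizontal axis, bins of 0.1), for all 26961 tested probe sets (grey bars) and the 72 ABC transporter probe sets (red line). The medians are -0.04 and -0.02, and 3 members lie below -0.5. Each of the 3 bins from -0.8 to -0.5 holds 1 member, or 1.39% of members, against at most 0.271% of all probe sets. The member line also lies above the bars from -0.2 to -0.1, and below them in the bins above 0.2.

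By subfamily the median log2 change ran from -0.09 in ABCB to 0.07 in ABCE. It was -0.08 over 13 ABCA probe sets, -0.09 over 13 ABCB, -0.07 over 19 ABCC, -0.07 over 5 ABCD, 0.07 over 2 ABCE, -0.01 over 11 ABCF and -0.01 over 9 ABCG. On the single 54 h arrays the ABCA median lay at -0.09, -0.11 and -0.05 and the ABCC median at -0.10, -0.05 and -0.06. The ABCB median had mixed signs, -0.10, 0.04 and 0.04. The ABCD median was 0.03, -0.44 and -0.06, and on 54h replicate B both Abcd2 probe sets and 1 of Abcd4 lay between -0.49 and -0.44. No subfamily had a probe set at an unadjusted p of 0.05 in the higher direction, and the 4 lower ones were 2 of Abcb1b, 1 of Abca1 and 1 of Abcd4. Of these 4, only the brighter Abcb1b probe set lay above the olfactory receptor bound of 469 units.

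**Figure D3:**
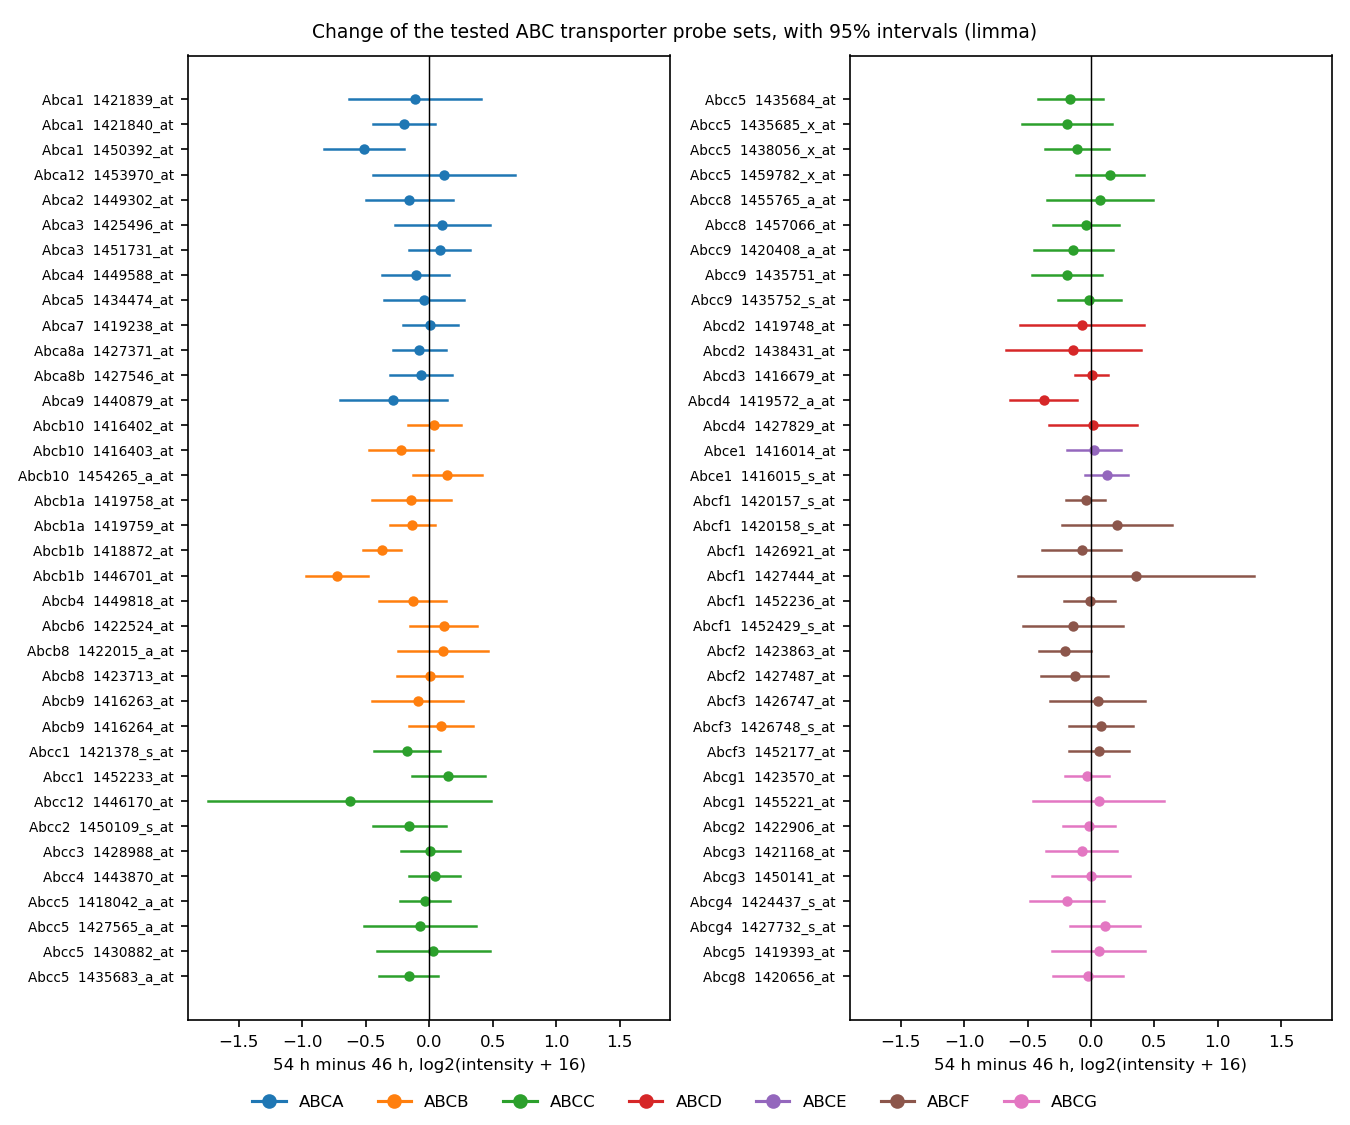
Change from 46 h to 54 h on the log2(intensity + 16) scale (horizontal axis) for each of the 72 tested probe sets, coloured by subfamily; points are limma estimates and lines their 95% confidence intervals. Both Abcb1b intervals, -0.52 to -0.23 and -0.97 to -0.48, lie wholly below 0, and most others cross it.

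None of the other exporters of drugs and organic anions passed limma. Abcg2, the breast cancer resistance protein that exports drugs, urate and sulphated steroids, read 1446, 1229 and 1479 units at 46 h and 1377, 1375 and 1353 at 54 h. The groups overlapped and the log2 change was -0.01 ± 0.09 SE. Abcc4, an exporter of cyclic nucleotides and steroid sulphates, read 1011, 1032 and 1163 units and then 1131, 1076 and 1091, a change of 0.04 ± 0.09 SE. Abcc3, an organic anion exporter of basolateral membranes, had 0.01 ± 0.10 SE, and Abcc2, its canalicular relative in hepatocytes, -0.16 ± 0.13 SE. Abcc2 read 198 to 227 units at 46 h and 173 to 211 at 54 h.

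Abcc1 and Abcc5 show how far probe sets of a gene can differ. Abcc1, which exports glutathione conjugates, had log2 changes of 0.15 ± 0.13 SE in 1452233_at and -0.18 ± 0.12 SE in 1421378_s_at. Abcc5, an exporter of cyclic GMP and nucleotide analogues, had 10 probe sets, of which 8 were tested. Their changes ran from -0.19 to 0.15, and 6 of the 8 were below 0. The brightest, 1418042_a_at, read 936, 991 and 919 units at 46 h and 881, 967 and 931 at 54 h, a change of -0.03 ± 0.09 SE with overlapping arrays. Abcc12 was erratic: 1446170_at read 379, 299.5 and 77.4 units at 46 h and 72.8, 168 and 178 at 54 h. Its log2 change of -0.63 had an SE of 0.50, and its 95% interval ran from -1.74 to 0.49.

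Among sterol and phospholipid transporters, the lowest change was in 1 probe set of Abca1 that lay under the olfactory receptor bound of 469 units. By the brightest probe set of each gene, Abca1 had -0.20 and Abcg4 -0.19. ABCA1 passes cholesterol and phospholipid to apolipoprotein A-I. Its probe set 1450392_at read 254, 275 and 345 units at 46 h and 181, 200.3 and 213 at 54 h, so the groups did not overlap. The log2 change was -0.51 ± 0.14 SE (limma adjusted p = 0.266). Probe set 1421840_at read 3754, 4749 and 4625 units at 46 h and 4327, 3363 and 3717 at 54 h. There the groups overlapped and the change was -0.20 ± 0.11 SE. Probe set 1421839_at read 1387, 2016 and 936 units and then 1243, 1119 and 1486, a change of -0.11 ± 0.23 SE. All 3 probe sets were thus below 0, but only 1450392_at separated the groups.

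Abcg1, which passes cholesterol to high-density lipoprotein, read 1404, 1480 and 1512 units at 46 h and 1477, 1439 and 1379 at 54 h in 1423570_at. Its change was -0.03 ± 0.08 SE with a 95% interval from -0.21 to 0.14. The other Abcg1 probe set, 1455221_at, had 0.06 ± 0.23 SE. Abcg4, a sterol transporter of the brain, had -0.19 ± 0.13 and 0.11 ± 0.12 SE in its 2 probe sets. Abcg5 and Abcg8, neighbours on chromosome 17 whose products pair to export plant sterols and cholesterol, had 0.06 ± 0.16 and -0.02 ± 0.12 SE. Abca3, the surfactant lipid transporter of lung, had 0.08 ± 0.11 and 0.10 ± 0.17 SE. Abca7, a relative of Abca1, had 0.01 ± 0.10, Abca2, a lipid transporter of endolysosomes, -0.16 ± 0.15, and Abca12, the lipid transporter of skin, 0.11 ± 0.25 SE. Macrophages use Abca1 and Abcg1 to shed cholesterol. The 8 macrophage and immune markers summed to 27722 to 28724 units at 46 h and 25135 to 25518 at 54 h, with 0 past limma. At an unadjusted p of 0.05, 4 of these markers were lower, against 5.75% of all tested probe sets. Their part in the Abca1 values was not tested.

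**Figure D4:**
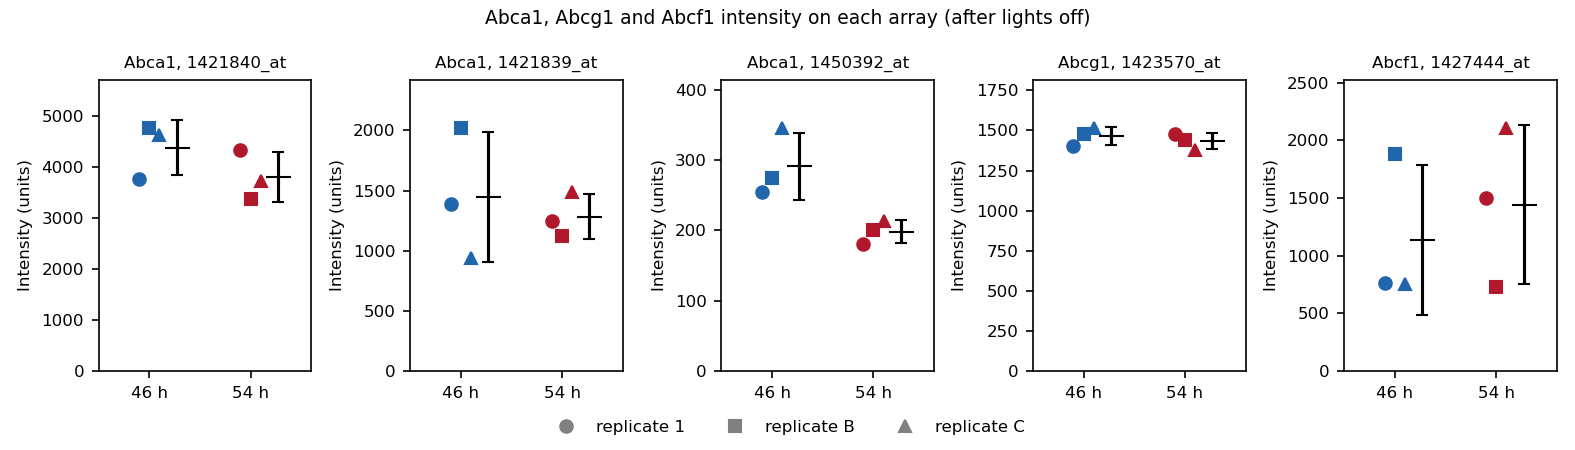
Intensity in units (vertical axes, linear from 0) on each array at 46 h (blue) and 54 h (red) for the 3 Abca1 probe sets, the brighter Abcg1 probe set and 1 Abcf1 probe set; symbols mark replicates, and black bars the mean ± SD of 3 arrays. The groups separate only for Abca1 1450392_at, and Abcf1 1427444_at varies more within each group than between them.

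The Abca5, Abca6, Abca8a, Abca8b and Abca9 genes lie side by side on chromosome 11. Abca8a, a transporter of uncertain cargo, read 2394, 2123 and 2385 units at 46 h and 2467, 2002 and 2087 at 54 h, a change of -0.08 ± 0.09 SE with overlapping arrays. Abca8b had -0.07 ± 0.11 SE and Abca5 -0.04 ± 0.14 SE. Abca9 read 1743, 1808 and 1019 units at 46 h and 1203, 1211 and 1211 units at 54 h. The 54 h arrays lay close together and inside the 46 h range, and the change was -0.29 ± 0.19 SE. The 6 capsule and stroma markers summed to 16319 to 19480 units at 46 h and 15861 to 18179 at 54 h, with 0 past limma. At an unadjusted p of 0.05, 1 of these markers was lower, against 5.75% of all tested probe sets. Abca4, known from photoreceptors, averaged 357 and 329 units with a change of -0.11 ± 0.12 SE.

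Transporters of organelles differed in both directions, and none passed limma. Abcd3, which brings fatty acids and bile acid precursors into peroxisomes, read 3281, 3098 and 3233 units at 46 h and 3268, 3296 and 3081 at 54 h. Its change was 0.00 ± 0.06 SE, with a 95% interval from -0.13 to 0.14, the narrowest of the members. Abcd2, its relative for very long-chain fatty acids, read 518, 344 and 579 units and then 601, 332 and 383 in 1438431_at. The B array was the lowest at each hour, also in 1419748_at with 144 units at 46 h and 139 at 54 h. Their changes were -0.14 ± 0.24 and -0.07 ± 0.22 SE.

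Abcd4, which helps vitamin B12 leave the lysosome, read 303, 328 and 341 units at 46 h and 245, 225 and 271 at 54 h in 1419572_a_at. The groups did not overlap, and the log2 change was -0.37 ± 0.12 SE (limma adjusted p = 0.333). The other Abcd4 probe set, 1427829_at, lay just above the filter and had 0.02 ± 0.15 SE. In mitochondria, Abcb10, which supports haem synthesis, read 1059, 957 and 899 units at 46 h and 998, 996 and 999.7 at 54 h in 1416402_at, a change of 0.04 ± 0.09 SE. Its other probe sets had 0.14 ± 0.12 and, in 1416403_at with groups that did not overlap, -0.22 ± 0.11 SE (limma adjusted p = 0.553). Abcb8, a transporter of the inner mitochondrial membrane, had 0.00 ± 0.11 and 0.11 ± 0.16 SE, and Abcb6, a porphyrin transporter, 0.11 ± 0.12 SE. Abcb9, a lysosomal peptide transporter, had 0.09 ± 0.11 and -0.09 ± 0.16 SE.

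The ABC proteins that regulate ATP-sensitive potassium channels had changes from -0.19 to 0.07, and none passed limma. Abcc9, the sulphonylurea receptor of vascular smooth muscle and pericytes, read 1172, 998 and 1238 units at 46 h and 1257, 1072 and 1049 at 54 h in 1435752_s_at, a change of -0.01 ± 0.11 SE. Its other probe sets had -0.19 ± 0.12 and -0.14 ± 0.14 SE. Abcc8, the receptor of beta cells and neurons, had -0.04 ± 0.11 and 0.07 ± 0.19 SE. The pore genes had 0.08 ± 0.11 SE (Kcnj8) and 0.05 ± 0.23 SE (Kcnj11).

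The soluble members act in translation. Abce1, which splits ribosomes for recycling, read 2420, 2432 and 2681 units at 46 h and 2887, 2527 and 2801 at 54 h in 1416015_s_at. The groups overlapped and the change was 0.12 ± 0.08 SE; 1416014_at had 0.02 ± 0.09 SE. Abcf2 read 1197, 1179 and 1171 units at 46 h and 926, 1092 and 1068 at 54 h in 1423863_at, without overlap, a change of -0.20 ± 0.09 SE (limma adjusted p = 0.502). Its second probe set had -0.13 ± 0.12 SE. Abcf3 had changes from 0.05 to 0.08 in its 3 probe sets.

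Abcf1, a factor of translation initiation, had 6 tested probe sets that went separate ways. Probe set 1420157_s_at read 2983, 3349 and 2961 units at 46 h and 2900, 3030 and 3079 at 54 h, a change of -0.04 ± 0.07 SE. Probe set 1427444_at read 765, 1884 and 752 units at 46 h and 1499, 726 and 2101 at 54 h. These values fell into a lower set of 3 arrays and a higher set of 3, each holding arrays of both hours. The same 3 arrays were the higher ones in 1420158_s_at, with 182, 193 and 163 units against 109, 134 and 136. The change of 1427444_at was 0.35 ± 0.41 SE.

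Probe sets of a gene agreed on the sign of the change in 11 of the 20 genes with at least 2 tested. The 95% confidence intervals overlapped among all probe sets of a gene in 20 of 20. With 3 arrays a side these intervals are wide, so their overlap says little about agreement. In Abcb1b each estimate lay outside the interval of the other probe set. The largest spread between probe sets of a gene was 0.50 on the log2 scale in Abcf1, followed by 0.40 in Abca1, 0.39 in Abcd4, 0.36 in Abcb10 and 0.35 in Abcb1b, and the median spread was 0.14. Over the 6 arrays, which share the difference between hours, the 2 Abcb1b probe sets had Pearson r = 0.91, given as a description. Among the 20 genes the median r between probe sets was above 0.5 in 7 and below 0 in 6. In Affymetrix naming, the suffixes _s and _x mark probe sets that may match several transcripts, and 10 and 4 member probe sets carried them. Near relatives such as Abca8a and Abca8b, or Abcb1a and Abcb1b, may share signal, which was not tested.

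**Figure D5:**
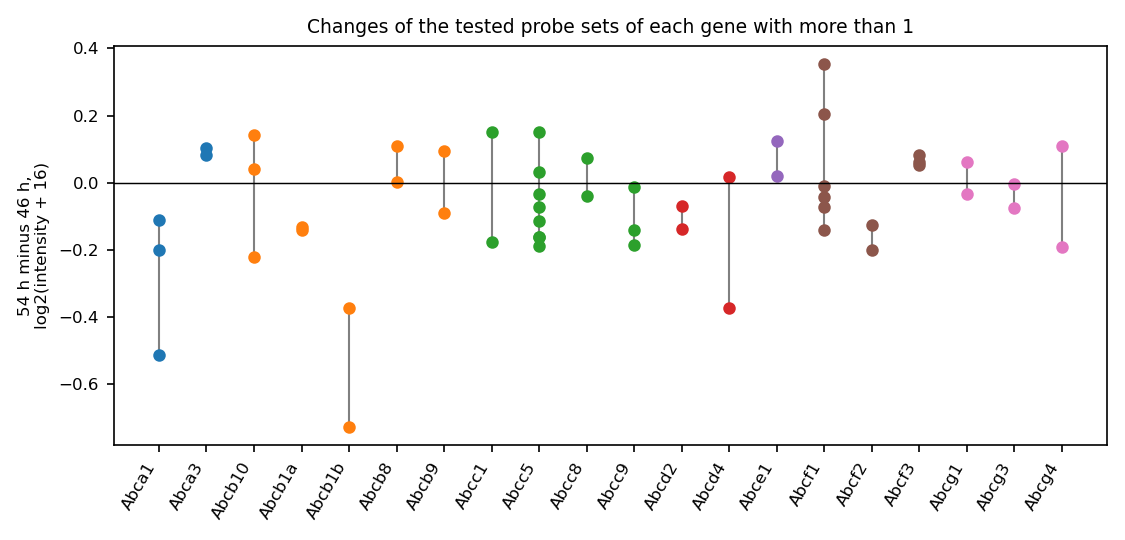
Change from 46 h to 54 h on the log2(intensity + 16) scale (vertical axis) of each tested probe set for the 20 genes with at least 2, coloured by subfamily; grey lines join probe sets of a gene. Both Abcb1b probe sets lie below -0.3, whereas 9 genes have probe sets on both sides of 0.

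Genes that work with the transporters were read from their brightest probe sets, and 0 passed limma in any of 9 lists. Of 13 tested genes of sterol efflux and the LXR receptors that induce Abca1 and Abcg1, 10 were below 0, with a median of -0.04 beside -0.02 over everything tested. By unadjusted limma p under 0.05 there were 1 higher and 2 lower, against 4.34% and 5.75% of all tested probe sets. The apolipoprotein gene Apoe had -0.33 ± 0.06 SE (limma adjusted p = 0.0922), Apoa1, the acceptor of ABCA1 made in liver, 1.38 ± 0.24 SE, and the vesicle fusion gene Stx12 -0.23 ± 0.08 SE. Nr1h3, which encodes LXR alpha, averaged 477 and 475 units. Of 8 receptors and sensors of xenobiotics and bile acids 1 was lower at an unadjusted p of 0.05, the NRF2 repressor gene Keap1 with -0.17 ± 0.07 SE. Of 9 genes of mitochondrial iron-sulphur and haem synthesis 7 were below 0 (median -0.19), against 55.6% of all tested probe sets. In this list, chosen with earlier results of these data known, 3 were lower at an unadjusted p of 0.05, against 5.75% of all: the scaffold gene Iscu with -0.25 ± 0.05, ferrochelatase Fech with -0.27 ± 0.06 and the sulphur donor gene Nfs1 with -0.19 ± 0.05 SE.

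Peroxisomal genes had a median of 0.03, with 1 of 9 higher at an unadjusted p of 0.05, against 4.34% of all tested probe sets. The higher one was the oxidation enzyme gene Hsd17b4 with 0.19 ± 0.08 SE. The medians were -0.02 for 6 peptide loading genes, 0.06 for the 2 potassium channel pores, -0.0022 for 4 translation partners and -0.01 for 5 solute carriers of organic anions and steroids. In these 4 lists none reached an unadjusted p of 0.05 in limma.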

How the data were processed

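The deposited table holds linear intensity values per probe set, 1 array per sample; background correction, summary and normalization are not given in the sources used here. Per the labels' protocols, total RNA was column-purified and biotin-labelled. Of 45001 rows, 64 controls, 1 without values and 1 with a damaged value were left out. Probe sets were named through the platform annotation (34848 with exactly 1 gene, 928 with several, 9159 with none); symbols were checked by gene ID against RefSeq (GRCm38.p6), which changed 0.

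Values were taken as log2(intensity + 16), so fold changes of dim probe sets are understated, without further scaling; array medians over the tested probe sets spanned 0.0728 on this scale. Probe sets with a mean above the 40th percentile (26961) were tested in limma 3.58.1 under R 4.3.3 (lmFit, eBayes with a trend), 54 h against 46 h, two-sided, Benjamini-Hochberg over all, threshold 0.05. The procedure was tested on simulated data with independent normal noise, which holds no spread shared between arrays and so may differ from these data. Fold changes carry 3 arrays a side, which limits precision. Python 3.11.15 and matplotlib 3.10.9 made tables and plots.

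The members and lists were chosen with earlier results of these data known. Named genes were Abcb1b, Abcb1a, members at an unadjusted p under 0.05, the outermost changes of each subfamily, genes with several tested probe sets and well-known members; partner genes were those with the smallest p. Lists are described by counts and medians. As alternatives the arrays were centred, quantile-normalized, weighted, blocked by replicate letter or left out in turn; filters, offsets, the eBayes trend and robustness were varied, and probe sets of a gene were averaged. The labels do not say whether replicate letters pair the arrays, and the main fit did not use them.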

Additional observations from a re-analysis of the deposited data

How the results depend on the processing

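The count of 31 called probe sets over the whole table was 47 with quantile normalization, 50 with centring on array medians, 48 with a filter at the 60th percentile, 3466 with array weights, 3 without a trend and 61 with robust eBayes, and ran from 2 to 65 when an array was left out (2 without 46h replicate 1 or 54h replicate C). The count of 0 called member probe sets was 5 with array weights, 1 with centring, 1 with robust eBayes and 0 to 1 when an array was left out; apart from Abcb1b, only array weights called members (Abce1, Abcb10 and Abca9). The 4 member probe sets at an unadjusted p of 0.05 were 1 with the filter at the 60th percentile, which removes dimmer probe sets, 20 with array weights and 4 to 7 without single arrays. No matching share of the whole table is at hand for these settings, so such counts single out nothing about the family. With array weights the 5 called members were among 72 tested, and the 3466 calls among 26961. With the replicate block 1 member probe set was called, the brighter one of Abcb1b (-0.37, limma adjusted p = 0.0410). The dimmer one had limma adjusted p = 0.145. Deviations of same-letter arrays from their group means correlated at -0.06, -0.41 and -0.49. Across letters, 46h replicate B correlated with 54h replicate C at 0.46 and 46h replicate C with 54h replicate B at 0.38. The labels do not say whether a letter pairs arrays, and deviations within groups of 3 arrays cannot settle it. The brighter Abcb1b probe set ran from -0.45 to -0.30 without single arrays and was -0.39 with array weights; the dimmer one was -0.74 with array weights, -0.73 with robust eBayes and -0.70 with centring, and was not tested at the 60th percentile. Of 1130 recomputed member values 80, from 33 probe sets, changed sign without being called; the largest reported log2 change among these was 0.14 in size. The 38 expressed genes became 30 at the 60th percentile, 36 when each array had to pass, and 25 above olfactory receptor probe sets. The causes were not tested.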

Other observations

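Tap1, Tap2 and Cftr are ABC proteins by structure but carry other symbols. Tap1, a subunit of the transporter that feeds peptides to MHC class I, read 412, 445 and 538 units on the 46 h arrays and 383, 353 and 310 units on the 54 h arrays. The groups did not overlap, and the log2 change was -0.40 ± 0.13 SE (limma adjusted p = 0.349). Its partner Tap2 read 714, 691 and 852 units and then 520, 706 and 619, with overlapping groups and a log2 change of -0.29 ± 0.13 SE. Neither passed the test. The chloride channel gene Cftr lay under the filter, at 25.9 to 50.9 units at 46 h and 23.1 to 41.7 at 54 h.

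The arrays that read higher in Abcf1 1427444_at (46h replicate B and 54h replicates 1 and C) were also the higher ones in Abcg1 1455221_at, with 338, 341 and 357 units. The remaining arrays read 270.4 and 225 units at 46 h and 192 units at 54 h. In Abcc5 1430882_at the same arrays read 672, 556.2 and 729 units, against 556.1 and 440 units at 46 h and 434 units at 54 h. Over all tested probe sets, deviations of 46h replicate B and 54h replicate C from their group means correlated at 0.46. Those of 46h replicate B and 54h replicate 1 correlated at 0.04. The likeness of 46h replicate B and 54h replicate C is thus not particular to these probe sets, which were singled out after their values were seen.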
